A study of Homo sapiens with 12 samples.

Results

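The genes described here are 8 genes of low abundance that fell most with bezafibrate in CAOV3 cells, NYAP2, TINAG, CREB5, PPP1R1C, LRRC17, KLRC3, CYGB and CCDC152, together with SELENOP, an abundant gene that overlaps CCDC152. They are 9 of the 19677 genes listed in the tables, and all 9 were found by symbol. The 8 genes were picked from measured values. Each was among the 5 lowest log2 fold changes in at least 1 of 3 contrasts with the drug (bezafibrate against control, the combination against ascites, the combination against control), among genes that passed the test, did not overlap between the groups and had a mean of at least 1 CPM over the 12 libraries. CPM (counts scaled to a common library size after TMM scaling) is the level used throughout. EDN1 and FGB met the same rule and are not among the 8. SELENOP was added for its position and not for its fall.

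CAOV3 is a human line established from ovarian carcinoma, labelled as high-grade serous epithelium and wild type. RNA was sequenced from 12 libraries in 4 groups of 3, and the series asked how ascites and a fibrate drug change transcription. Control cells received DMSO, the ascites group received ovarian cancer ascites at 10% of the medium and DMSO, the bezafibrate group received 200 uM of the drug, and the combination group received 200 uM of the drug with 10% ascites. All cells grew in DMEM with fetal bovine serum, and the labels give 16 hours for each treated group and no time for the control. DMSO is not named for the groups with the drug, so the drug and any difference in solvent cannot be told apart. It is not stated whether the libraries came from separate cultures or whether the ascites came from more than 1 donor, so SDs and p-values describe the spread between these libraries.

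Bezafibrate is a fibrate, a drug that activates the PPAR family of nuclear receptors. Activated PPARs pair with RXR on repeats of the sequence AGGTCA and switch on genes of fatty acid uptake, oxidation and storage. Ascites is the fluid that fills the abdomen in advanced ovarian cancer and bathes the tumor cells.

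Total counts ran from 11831093 to 18762759 per library. Libraries with and without the drug parted on principal component 1 (37.0% of the variance), and combination replicate 3 stood apart from the other 11 on component 2 (at -22.4, 9.88% of the variance). PPAR targets rose in both drug contrasts, 7 of 7 genes in each, with a median log2 fold change of 2.73 in bezafibrate against control. Of the 12470 genes tested, 1257 were called higher in bezafibrate against control and 1305 in the combination against ascites. Of the 10 markers listed for serous ovarian carcinoma, KRT8 (3005 CPM in control), KRT18, KRT7, EPCAM and CDH1 were well detected. SOX17 had no count in any library, which allows up to 0.0734 CPM in control, and WFDC2, MUC16 and WT1 stayed at group means of at most 0.145 CPM. PAX8 was low, with group means from 0.378 CPM in control to 1.11 CPM in bezafibrate. The epithelial markers of the labelled cell type were thus present, and its ovarian lineage markers other than PAX8 were at or near 0.

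The 8 genes were scarce in these cells. Their means over 12 libraries ran from 1.06 CPM (CYGB) to 7.31 CPM (LRRC17), above 4.75% and 20.7% of the 12470 genes tested, whereas SELENOP at 186.7 CPM lay above 91.3%. Per kilobase of merged exons, the order in control was SELENOP (37.1 CPM per kb), LRRC17 (4.20), KLRC3 (3.93), TINAG (1.34), CCDC152 (0.810), NYAP2 (0.725), CYGB (0.504), PPP1R1C (0.393) and CREB5 (0.220). LRRC17 and KLRC3, CCDC152 and NYAP2, and CYGB and PPP1R1C differed by less than the larger SD of the pair. The fall of a gene in a bulk library can come from fewer cells with the transcript or from less of it per cell, which cannot be told apart.

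**Figure D1:**
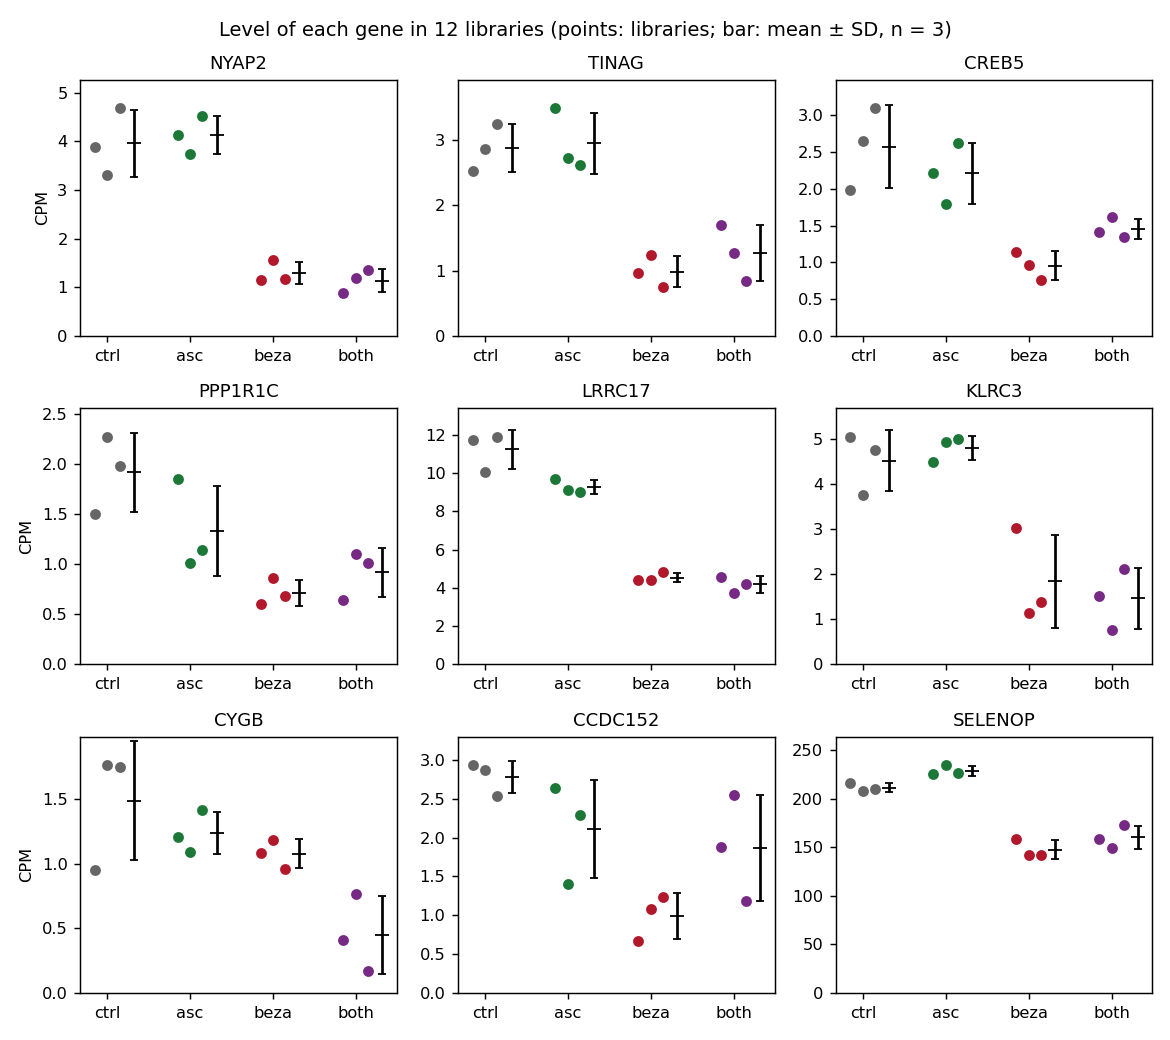
Level of the 9 genes in each library. The y axis of each panel is CPM from 0, points are the 3 libraries of the control (ctrl), ascites (asc), bezafibrate (beza) and combination (both) groups, and the bar beside them is the mean ± SD. NYAP2, TINAG, CREB5, LRRC17, KLRC3 and SELENOP lie lower in every library with the drug than in any without it. CCDC152 has its lowest mean in bezafibrate and CYGB in the combination.

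In bezafibrate against control, 7 of the 8 genes were called lower at an adjusted p under 0.05 in edgeR's quasi-likelihood test, against 7.55% of all genes tested and 4.47% of tested genes in the same range of mean CPM. The same 7 had groups that did not overlap, against 16.3% of all genes. With ascites present, the combination against ascites, 5 of 8 were called lower (background 7.29%, or 3.97% in the same range) and 6 did not overlap (14.5%). Against control, 7 of 8 were called lower in the combination (7.96%) and 7 did not overlap (14.6%). The genes were chosen on these contrasts, so the counts describe the choice and are read no further. The median log2 fold change of the 8 was -1.39, -1.15 and -1.26 in the 3 contrasts, where the median over all tested genes was -0.0037, -0.0037 and -0.0030. The 5 genes lowest in bezafibrate against control were NYAP2, TINAG, CCDC152, CREB5 and PPP1R1C. In the combination against ascites, which shares no library with that contrast, NYAP2 and TINAG were called and the other 3 were not. The combination against ascites was itself 1 of the 3 contrasts of the choice, so this too is a description.

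**Figure D2:**
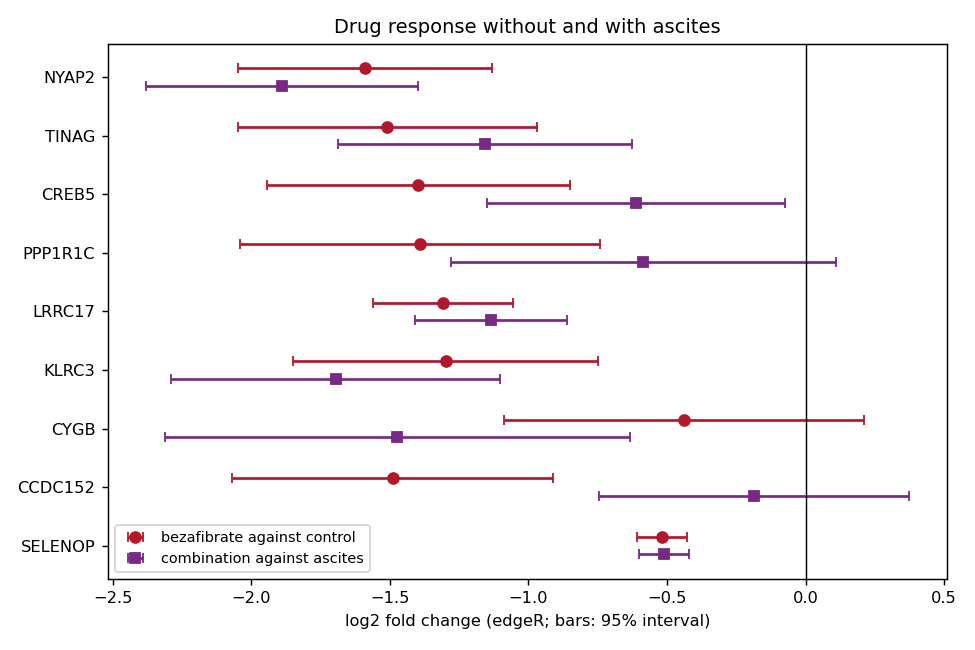
Response to the drug without and with ascites. The x axis is the log2 fold change from edgeR with its 95% interval, circles are bezafibrate against control and squares the combination against ascites. All 9 fitted values lie below 0 in both contrasts. The interval includes 0 for CYGB without ascites and for PPP1R1C and CCDC152 with ascites.

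NYAP2, an adaptor that binds phosphoinositide 3-kinase and the WAVE complex and is best known in neurons, fell furthest in bezafibrate against control among the 8. In GENCODE 29 it lies at chr2:225399710-225654018 (GRCh38, plus strand). NYAP2 measured 3.89, 3.31 and 4.68 CPM in control and 4.13, 3.75 and 4.51 CPM in ascites. It measured 1.15, 1.56 and 1.17 CPM in bezafibrate and 0.880, 1.19 and 1.35 CPM in the combination. Every library with the drug was below every library without it. The group means were 3.96 ± 0.690, 4.13 ± 0.382, 1.29 ± 0.233 and 1.14 ± 0.239 CPM (SD, n = 3). NYAP2 had a log2 fold change of -1.59 (SE 0.226) without ascites and -1.89 (SE 0.242) with it. Of 9 tested genes listed with NYAP2, its relative NYAP1 and partners of NYAP proteins, 2 were called higher and 1 lower in bezafibrate against control, where 17.6% of all genes were called in either direction. CYFIP1 (0.10) and PIK3CB (0.16) rose and PIK3R3 (-0.34), a regulatory subunit of the kinase, fell. NYAP1 was at 0.871 ± 0.207 CPM in control and 0.802 ± 0.220 CPM in bezafibrate, with a log2 fold change of -0.16 (95% interval -0.97 to 0.66). The RefSeq window around the upstream start site of NYAP2 (chr2:225399460-225399759, plus strand, GRCh38.p14) is printed because the gene fell furthest. It runs from 250 bases before the start site and holds none of 6 short motifs searched, so no letter is in capitals.
NYAP2: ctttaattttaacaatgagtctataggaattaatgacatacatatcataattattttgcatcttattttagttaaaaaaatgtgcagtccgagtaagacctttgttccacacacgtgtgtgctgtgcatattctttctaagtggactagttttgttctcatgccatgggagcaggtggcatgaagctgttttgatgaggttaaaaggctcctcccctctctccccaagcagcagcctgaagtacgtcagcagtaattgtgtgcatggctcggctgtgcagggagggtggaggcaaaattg

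CREB5 encodes a bZIP transcription factor that binds the cyclic AMP response element, alone or with JUN. It lies at chr7:28299321-28825894 (plus strand). CREB5 measured 1.98, 2.64 and 3.09 CPM in control and 2.21, 1.80 and 2.63 CPM in ascites. It measured 1.15, 0.969 and 0.756 CPM in bezafibrate and 1.41, 1.61 and 1.35 CPM in the combination. The drug groups were below the groups without it in every library, and the combination was above bezafibrate in every library. The log2 fold change was -1.40 (SE 0.269) in bezafibrate against control. With ascites present it was -0.61 (SE 0.265, 95% interval -1.15 to -0.07), and the edgeR adjusted p of 0.114 did not pass. For the combination against control, which shares the control libraries with the choice, it was -0.81 (edgeR adjusted p 0.0243). That call was lost with DESeq2 (-0.82, adjusted p 0.0857) and without control replicate 2 (-0.78, edgeR adjusted p 0.0736), control replicate 3 (-0.66, 0.142), combination replicate 1 (-0.78, 0.0808) or combination replicate 3 (-0.77, 0.0584). Among 15 CREB and ATF factors and cofactors, 1 was called higher and 2 lower with bezafibrate, where 17.6% of all genes were called. JUN, a partner in AP-1, rose by 0.82 (SE 0.062), and CREB3L1 (-0.24) and the coactivator CREBBP (-0.13) fell. With DESeq2, 1 of the 15 was called higher and 0 lower, so the 2 falls were not called there.

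PPP1R1C is a small inhibitor of protein phosphatase 1, at chr2:181954241-182131398 (plus strand). It measured 1.50, 2.28 and 1.98 CPM in control and 1.85, 1.01 and 1.14 CPM in ascites. It measured 0.603, 0.861 and 0.687 CPM in bezafibrate and 0.645, 1.10 and 1.01 CPM in the combination. The bezafibrate libraries were all below control, and the combination overlapped ascites. The log2 fold change was -1.39 (SE 0.320) without ascites, from 10 to 31 counts per library. With ascites it was -0.59 (95% interval -1.28 to 0.11, edgeR adjusted p 0.275), which did not pass. The combination against control gave -1.09 (edgeR adjusted p 0.0130). That call was lost with DESeq2 (-1.09, adjusted p 0.0557), without control replicate 2 (-0.95, edgeR adjusted p 0.0836) and without combination replicate 1 (-0.85, 0.111). Among 8 other tested subunits and inhibitors of the phosphatase, 1 was called, PPP1R14A, which rose by 0.67 (SE 0.081), where 17.6% of all genes were called.

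TINAG, a basement membrane glycoprotein known from kidney tubules, lies at chr6:54307859-54390152 (plus strand). It measured 2.52, 2.87 and 3.25 CPM in control and 3.49, 2.73 and 2.63 CPM in ascites. It measured 0.965, 1.24 and 0.756 CPM in bezafibrate and 1.70, 1.27 and 0.844 CPM in the combination. All 6 libraries with the drug were below all 6 without it. The log2 fold change was -1.51 (SE 0.266) in bezafibrate against control. TINAG ranked outside the 5 lowest in the combination against ascites. There it fell by 1.16 on the log2 scale (SE 0.261, edgeR adjusted p 0.00103). With 1 library left out in turn the edgeR adjusted p stayed between 0.000591 and 0.0146. TINAG was chosen with this contrast among the 3 used, so these values are a description. Its paralog TINAGL1 went the other way. TINAGL1 measured 55.4, 56.5 and 53.3 CPM in control and 101.2, 104.7 and 109.4 CPM in bezafibrate, a rise of 0.93 on the log2 scale (SE 0.046, edgeR adjusted p 1.27e-18), and it rose by 0.85 (SE 0.046, edgeR adjusted p 2.35e-17) with ascites. Of 10 tested relatives and basement membrane genes, 4 rose with bezafibrate (among them TINAGL1 and the laminin chains LAMA3, by 0.72, and LAMB3, by 0.37) and 2 fell (AGRN and LAMB1, by 0.11 and 0.08), where 17.6% of all genes were called in either direction. With DESeq2, 3 of these 10 were called higher and 1 lower. The 5 proximal tubule markers summed to at most 1.09 CPM in any library and none was abundant enough to be tested.

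**Figure D3:**
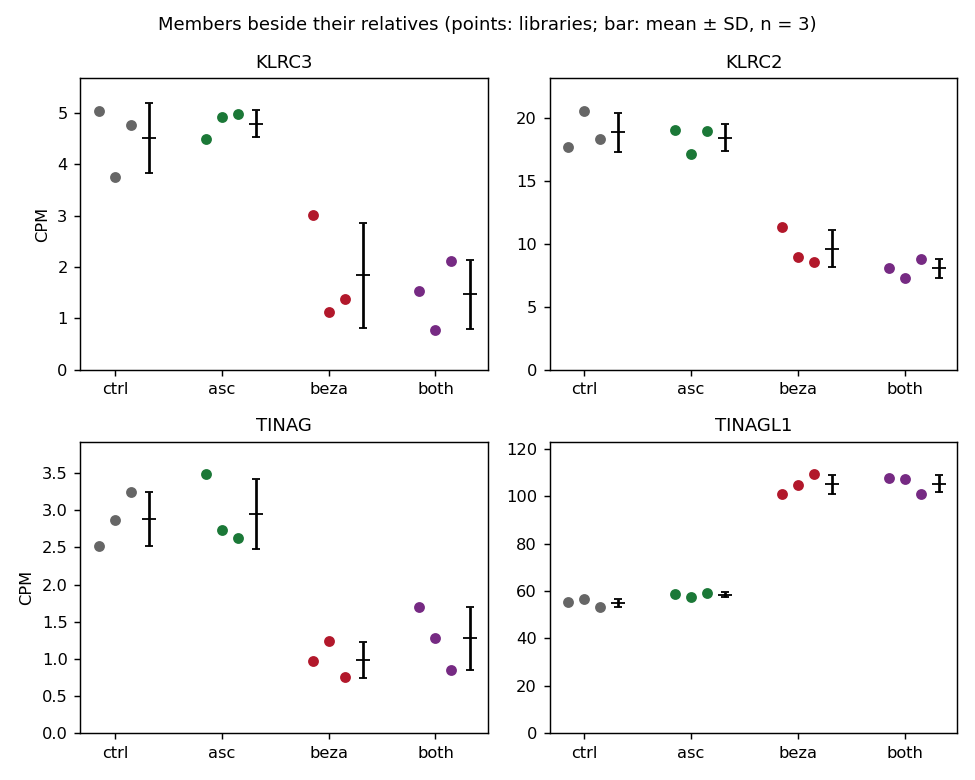
KLRC3 and TINAG beside their closest relatives. The y axis of each panel is CPM from 0, with the 3 libraries of each group as points and the mean ± SD beside them. KLRC2 fell along with KLRC3 in the drug groups, and TINAGL1 rose where TINAG fell.

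LRRC17, a secreted protein with leucine-rich repeats known from bone cell cultures, was the most abundant of the 8 and had the smallest SE among them. It lies at chr7:102912991-102944949 (plus strand). LRRC17 measured 11.7, 10.1 and 11.9 CPM in control and 9.68, 9.13 and 9.02 CPM in ascites. It measured 4.40, 4.41 and 4.81 CPM in bezafibrate and 4.58, 3.74 and 4.22 CPM in the combination. Every drug library was below every other library, and ascites was below control in every library. LRRC17 had a log2 fold change of -1.31 (SE 0.124) without ascites and -1.14 (SE 0.135) with it. LRRC17 lies within FBXL13, on the other strand, and 317 of its 2674 exon bases are also FBXL13 exon. FBXL13 had 3 to 15 counts per library and a log2 fold change of -0.10 (95% interval -1.06 to 0.86). Of 8 small leucine-rich proteins only LUM was abundant enough to be tested, and it fell by 0.17 (SE 0.038, edgeR adjusted p 0.00121). Of 6 fibroblast markers, only COL1A1 (-0.68) and COL3A1 (-0.71) were abundant enough to be tested. Both fell with bezafibrate, where 7.55% of all genes were called lower. COL1A2, DCN and THY1 had at most 1 count in any library, and PDGFRB was at 0.325 CPM in control and 0.262 CPM in bezafibrate. The 6 markers summed to 9.99 to 11.3 CPM in control and 10.6 to 11.5 CPM in ascites. They summed to 6.35 to 6.87 CPM in bezafibrate and 5.57 to 7.21 CPM in the combination, and most of each sum was the 2 collagens. The part of these markers in the result was not tested.

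CYGB encodes cytoglobin, a globin of fibroblasts and stellate cells that binds oxygen and nitric oxide, and lies at chr17:76527356-76551175 (minus strand). It measured 0.954, 1.76 and 1.75 CPM in control and 1.21, 1.09 and 1.41 CPM in ascites. It measured 1.09, 1.18 and 0.962 CPM in bezafibrate and 0.411, 0.764 and 0.169 CPM in the combination, from 7, 9 and 2 counts. The combination was below the other groups in every library, and bezafibrate overlapped control. The log2 fold change was -0.44 in bezafibrate against control (95% interval -1.09 to 0.21) and -1.47 (SE 0.413, edgeR adjusted p 0.00905) in the combination against ascites, a contrast that picked it. Without combination replicate 3, the library that stands apart, the latter was -1.14 (edgeR adjusted p 0.0584) and no longer passed. CYGB was picked on the 2 contrasts of the combination, and it kept its place only with the mean taken over 12 libraries: over the 2 groups of each contrast its mean was under 1 CPM. CYGB shares 248 of its 2949 exon bases with PRCD on the other strand, which had 0 to 3 counts per library. Of 6 tested globins and their reductases, 0 were called with bezafibrate by edgeR, where 17.6% of all genes were called in either direction. DESeq2 called 0, and 0 had an unadjusted edgeR p under 0.05. In the combination against ascites edgeR and DESeq2 called 0 (17.8% of all genes in edgeR), and 1 had an unadjusted edgeR p under 0.05. The same held in the combination against control, where edgeR called 2273 of the 12470 genes tested. The 2 tested fibroblast markers given for LRRC17 had a median log2 fold change of -0.70 in bezafibrate against control and -0.83 in the combination against ascites. In the combination against bezafibrate their median was -0.007, where CYGB had -1.27. The part of these markers was not tested.

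KLRC3 encodes NKG2-E, a lectin-like receptor of natural killer cells that pairs with CD94, the product of KLRD1. It lies at chr12:10412312-10420595 (minus strand), in a cluster of close copies. KLRC3 and its neighbour KLRC2 were identical at 662 of 689 aligned coding bases (96.1%). Their coding sequences have 771 and 693 bases, so part of each was not aligned. Of the 50-base windows of KLRC3 transcripts, 19.8% were also in KLRC2, as were 10.1% of the 75-base and 2.96% of the 100-base windows. A read that lies within such a window cannot be assigned to either gene, and the read length is not given in the sources used here. The stretch of 180 coding bases printed here is from the longest part aligned without a gap. It covers bases 262 to 441 of the coding sequence of both (GENCODE 29), with the 6 bases that differ in capitals.
KLRC3: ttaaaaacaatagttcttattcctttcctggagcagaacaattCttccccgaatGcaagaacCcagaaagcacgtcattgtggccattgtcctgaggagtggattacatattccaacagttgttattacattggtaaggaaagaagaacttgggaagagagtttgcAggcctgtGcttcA
KLRC2: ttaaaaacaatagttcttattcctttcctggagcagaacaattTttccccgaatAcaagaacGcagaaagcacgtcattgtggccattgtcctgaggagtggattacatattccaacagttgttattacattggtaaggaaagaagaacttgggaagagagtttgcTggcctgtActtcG

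KLRC3 measured 5.04, 3.75 and 4.76 CPM in control and 4.49, 4.92 and 4.98 CPM in ascites. It measured 3.01, 1.13 and 1.37 CPM in bezafibrate and 1.52, 0.764 and 2.11 CPM in the combination. The drug libraries were below all others, with bezafibrate replicate 1 the highest of them. KLRC3 alone had a log2 fold change of -1.30 (SE 0.267) without ascites and -1.70 (SE 0.287) with it. A read-through gene, ENSG00000255641, shares 652 of the 1148 exon bases of KLRC3, and in bezafibrate replicate 1 it had 0 counts beside 50 for KLRC3, where the other bezafibrate libraries had 21 and 13 beside 21 and 20. Summed with it, KLRC3 measured 7.14 ± 2.18 CPM in control, 6.67 ± 0.600 in ascites, 2.51 ± 0.433 in bezafibrate and 3.25 ± 0.625 in the combination (SD, n = 3). The sum had a log2 fold change of -1.50 (SE 0.198) without ascites and -1.05 (SE 0.199) with it. The read-through gene also shares 338 of the 1499 exon bases of KLRC2, so its counts cannot be credited to KLRC3 alone. The values of KLRC3 alone and of this sum are therefore uncertain.

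KLRC2, which encodes the activating receptor NKG2-C and was not among the chosen genes, fell too. It measured 17.7, 20.6 and 18.3 CPM in control and 11.3, 8.93 and 8.59 CPM in bezafibrate. The log2 fold change was -0.97 (SE 0.102, edgeR adjusted p 1.10e-09) without ascites and -1.20 (SE 0.109, edgeR adjusted p 3.31e-11) with it. Its reads may come in part from KLRC3, and KLRC1 to KLRC4 summed had log2 fold changes of -0.996 and -1.25. With the read-through gene added to these 4 genes, the values were -1.07 (SE 0.094) without ascites and -1.12 (SE 0.099) with it. KLRD1, the partner of NKG2 receptors, and TYROBP, the adaptor of NKG2-C, had no count in any library, which allows up to 0.0734 CPM each in control. Of the 10 NK and T cell markers, 6 (PTPRC, KLRB1, GNLY, KLRD1, PRF1, CD3E) were at 0 in all libraries, and the 10 summed to 0.954 to 1.03 CPM in control and 1.24 to 1.69 CPM in bezafibrate. Most of these sums was NCAM1, at 0.863 ± 0.148 CPM in control and 1.19 ± 0.226 CPM in bezafibrate (SD, n = 3), which was not called.

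CCDC152, which encodes a coiled-coil protein of little known function, lies at chr5:42756801-42802360 on the plus strand. It overlaps SELENOP, at chr5:42799880-42887392 on the minus strand, tail to tail. SELENOP encodes selenoprotein P, the secreted protein that carries selenium from the liver to other tissues. The 2 genes share 1452 exon bases, 42.3% of the exon bases of CCDC152 and 25.5% of those of SELENOP, and 609 of the shared bases code for SELENOP and 0 for CCDC152. Whether counting used strand is not given in the sources used here, so a read from the shared stretch cannot be tied to either gene with certainty. The RefSeq windows around both start sites (GRCh38.p14, 250 bases before and 50 from the start site) are printed because the genes are read together. In CCDC152 (chr5:42756568-42756867, plus strand, 54.7% GC) the capitals mark 2 matches to TGANTCA, an AP-1 type site, and 1 to the GC box GGGCGG. In SELENOP (chr5:42811843-42812142, minus strand, 42.0% GC) they mark AGGTCA, the nuclear receptor half-site, at -96 from the start site and the TATA box TATAAA at -31.
CCDC152: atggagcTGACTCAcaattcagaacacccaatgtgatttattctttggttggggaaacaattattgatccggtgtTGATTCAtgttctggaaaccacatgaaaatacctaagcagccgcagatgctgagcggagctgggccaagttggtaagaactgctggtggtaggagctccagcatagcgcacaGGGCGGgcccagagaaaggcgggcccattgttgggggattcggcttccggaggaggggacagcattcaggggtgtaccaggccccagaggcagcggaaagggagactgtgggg
SELENOP: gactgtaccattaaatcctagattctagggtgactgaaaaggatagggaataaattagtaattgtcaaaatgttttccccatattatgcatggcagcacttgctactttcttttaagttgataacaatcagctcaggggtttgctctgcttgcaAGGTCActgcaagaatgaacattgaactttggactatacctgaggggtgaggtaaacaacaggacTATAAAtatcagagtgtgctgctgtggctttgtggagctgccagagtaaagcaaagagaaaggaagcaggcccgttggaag

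CCDC152 measured 2.93, 2.87 and 2.54 CPM in control and 2.63, 1.41 and 2.29 CPM in ascites. It measured 0.663, 1.08 and 1.24 CPM in bezafibrate and 1.88, 2.55 and 1.18 CPM in the combination. Bezafibrate was below control in every library, whereas the combination overlapped ascites and control. The log2 fold change was -1.49 (SE 0.286) in bezafibrate against control. With ascites present the value was -0.19 (95% interval -0.75 to 0.37, edgeR adjusted p 0.726), and without 1 library in turn it ran from -0.43 to 0.03. For the combination against control it was -0.57 (95% interval -1.11 to -0.04, edgeR adjusted p 0.141).

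SELENOP measured 216, 207 and 209 CPM in control and 225, 234 and 226 CPM in ascites. It measured 159, 142 and 141 CPM in bezafibrate and 159, 149 and 173 CPM in the combination. All 6 drug libraries were below all others. SELENOP fell by 0.52 on the log2 scale with bezafibrate (SE 0.044, edgeR adjusted p 8.63e-11), by 0.51 in the combination against ascites (SE 0.044, edgeR adjusted p 1.22e-10) and by 0.40 in the combination against control (SE 0.045, edgeR adjusted p 3.06e-08). With the counts of CCDC152 added, these were -0.53, -0.51 and -0.40. CCDC152 made up 1.34%, 1.36% and 1.20% of the summed counts in control and 0.417%, 0.753% and 0.867% in bezafibrate. Its share was lower than control in all 3 bezafibrate libraries. CCDC152 was chosen for its fall in those libraries, so this is a description. The share was 1.16%, 0.596% and 1.00% in ascites and 1.17%, 1.68% and 0.679% in the combination. Ascites replicate 2, without the drug, thus lay within the range of the bezafibrate libraries.

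**Figure D4:**
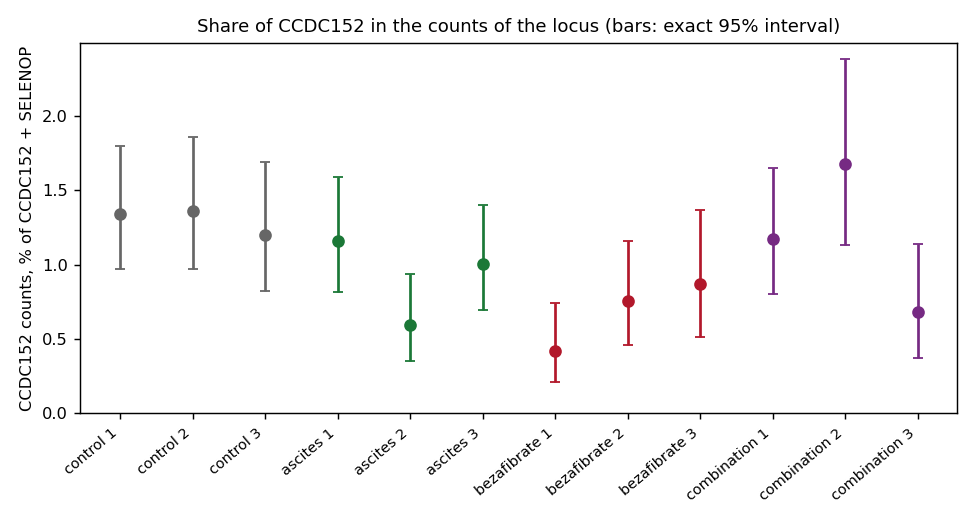
Share of CCDC152 in the counts of CCDC152 and SELENOP together, in percent on the y axis, for each of the 12 libraries on the x axis. Bars are exact 95% binomial (Clopper-Pearson) intervals and cover counting error only. The bezafibrate libraries lie between 0.417% and 0.867% and the control libraries between 1.20% and 1.36%. The ascites libraries lie between 0.596% and 1.16% and the combination libraries between 0.679% and 1.68%.

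Of 17 other selenoproteins tested, 1 was called higher with bezafibrate, GPX4 (0.23, SE 0.035), which detoxifies lipid peroxides, and 2 lower, the thioredoxin reductases TXNRD2 (-0.29) and TXNRD1 (-0.09). With ascites present 1 was called higher and 3 lower (17.8% of all genes were called in either direction). Of 9 genes of selenium uptake and selenocysteine insertion, 1 rose with bezafibrate (LRP8, a receptor for selenoprotein P, by 0.21) and 1 fell (SCLY, selenocysteine lyase, by 0.19). For both lists the share called over all genes with bezafibrate was 17.6%. SELENOP is also a liver gene, and 7 hepatocyte markers summed to 7.79 to 10.2 CPM in control and 14.8 to 16.9 CPM in bezafibrate. Of the 4 tested, 1 was called with bezafibrate (17.6% of all genes in either direction). It was APOA2, which rose by 1.39 on the log2 scale (SE 0.147). The level of APOA2 was 4.29 ± 0.984 CPM in control and 11.3 ± 1.35 CPM in bezafibrate (SD, n = 3). With the combination, 2 of the 4 rose and passed in edgeR, both relative to ascites (17.8% of all genes) and relative to control. DESeq2 called 2 and 1 of the 4 there. F2 was at 1.98 ± 0.376 CPM in control and 2.63 ± 0.165 CPM in bezafibrate. APOA1 was at 1.15 ± 0.171 and 0.793 ± 0.153 CPM in the same groups, SERPINA1 at 0.835 ± 0.0735 and 0.761 ± 0.296 CPM, TTR at 0.536 ± 0.0564 and 0.297 ± 0.0810 CPM and ALB at 0.505 ± 0.300 and 0.277 ± 0.0979 CPM.

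Ascites was compared with control to see whether the fluid moved these genes. No gene of the 9 passed in edgeR, where 0.0882% of all genes were called in either direction. Among the 8, 1 had an unadjusted p under 0.05 and 1 had groups that did not overlap (12.7% of all genes), LRRC17 in both cases, at -0.27 (SE 0.114, unadjusted p 0.0211, edgeR adjusted p 0.761). DESeq2 called 0 of the 8. SELENOP was higher in all 3 ascites libraries, at 0.11 (SE 0.043, unadjusted p 0.0126, edgeR adjusted p 0.716). The control libraries also served to pick the genes.

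The combination was compared with bezafibrate to see whether ascites moved these genes in the presence of the drug. None of the 9 passed in edgeR, where 0.128% of all genes were called, and DESeq2 called 0 of the 8. Among the 8, 2 had an unadjusted p under 0.05: CYGB at -1.27 (SE 0.413, unadjusted p 0.00389, edgeR adjusted p 0.628) and CCDC152 at 0.92 (SE 0.308, unadjusted p 0.00526, edgeR adjusted p 0.679). The groups did not overlap for CYGB and for CREB5 (0.59, SE 0.300), against 9.27% of all genes. For the interaction, the difference of the drug response with and without ascites, 0 of the 9 genes passed in edgeR (0.00% of all genes, with 445 at an unadjusted p under 0.05). DESeq2 called 0 of the 8. CCDC152 had 1.30 (SE 0.401, unadjusted p 0.00251, edgeR adjusted p 0.999) and CREB5 0.79 (SE 0.384, unadjusted p 0.0482, edgeR adjusted p 0.999). The response of SELENOP differed by 0.01 (95% interval -0.12 to 0.13). The drug libraries in these comparisons were also used to pick the genes.

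**Figure D5:**
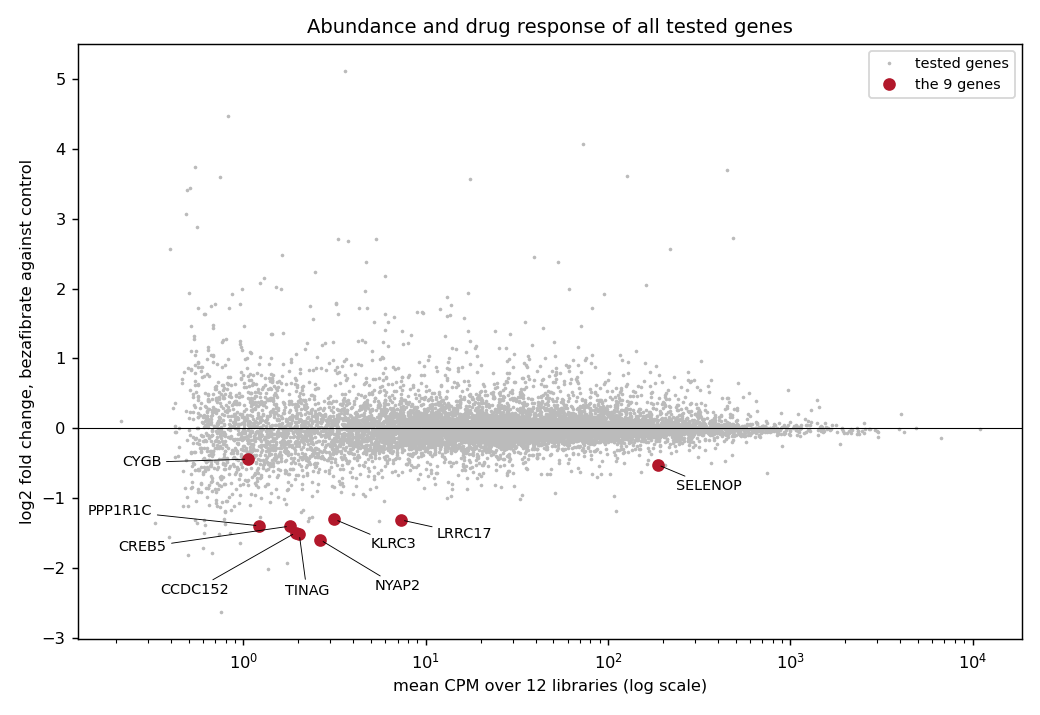
Mean abundance and drug response of all 12470 tested genes. The x axis is the mean CPM over 12 libraries on a log scale, the y axis the log2 fold change of bezafibrate against control, grey points are tested genes and red points the 9 genes. The 8 genes lie between 1.06 and 7.31 CPM, and SELENOP lies at 186.7 CPM.

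Few counts limited the precision of the low genes. The SE in bezafibrate against control was 1.06 to 1.18 times the SE that counting alone gives for LRRC17, NYAP2, CREB5, TINAG, PPP1R1C, CCDC152 and CYGB, 1.44 times for KLRC3 and 1.92 times for SELENOP. Just outside the 5 lowest in bezafibrate against control were SLC3A1 (-1.32, SE 0.159), SOX6 (-1.32, SE 0.250) and LRRC17 (-1.31), and PPP1R1C at -1.39 was the last inside. In the combination against control CYGB (-1.71) and LRRC17 (-1.41) were inside, and LHX4 (-1.24), KLRC2 (-1.23) and COL21A1 (-1.17) just outside. For the combination against ascites, HGD (-1.35), ANKRD37 (-1.32) and TLE6 (-1.23) were just outside.

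The 8 genes were chosen for a shared fall with the drug, which by itself makes their levels correlate across the groups, so the following values are a description. Over 12 libraries, which share the 4 groups, the Pearson correlation of their log2 CPM ran from 0.30 to 0.95 over 28 pairs, with a median of 0.75. With the group means removed it ran from -0.77 to 0.62, with a median of 0.05. Among the 5 tested genes whose log2 CPM was most like the mean of the 8 were F2RL1 (r 0.986), CAV1 (0.978), GPRC5A (0.977) and COL5A2 (0.976), over 12 libraries. The log2 fold changes of these 4 with bezafibrate ran from -0.24 (F2RL1) to -0.40 (COL5A2).

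RefSeq start-site windows of 300 bases were found for 8 of the 9 genes, 11 windows in all. CYGB had none. Their GC content ran from 31.0% (TINAG) to 54.7% (CCDC152). Among tested genes with a window, 80.5% of those tested, the median was 65.0%, and 14.4% were under 55%. In tested genes in the CPM range of the 8 (75.7% with a window), the median was 63.3%, and 21.1% were under 55%. The 55% mark lies just above the highest of the 11 windows, so all of them fall under it. The half-site AGGTCA, searched on both strands, was in 2 of the 11 windows (CREB5 and SELENOP) and in 13.8% of 35116 RefSeq windows. The direct repeat of this half-site with 1 base between (DR1), which contains it, was in 0 of 11 and in 0.02% of all. The cyclic AMP response element TGACGTCA was in 0 of 11 (1.85% of all), TGANTCA in 2 (7.71%), GGGCGG in 1 (45.0%) and TATAAA in 3 (11.5%). These are matches of letters within the windows only.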

How the data were processed

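The authors deposited 1 table of whole-number read counts per gene and library, with Ensembl identifiers and symbols. The submitters' processing notes name Trimmomatic 0.39, STAR 2.7.9a, RSEM 1.3.3, DESeq2 1.28.1 and GRCh38, without roles. Whether the counts are rounded RSEM estimates, the strand setting and the annotation release are not given in the sources used here. Low genes were removed with edgeR 4.0.16 (filterByExpr by group, at least 10 counts and 15 in total): 7207 went and 12470 were tested. All 9 genes passed. TMM scaling and the quasi-likelihood F test with 1 mean per group over 12 libraries (R 4.3.3) gave log2 fold changes, and p-values were adjusted by Benjamini-Hochberg over all genes tested. A gene was called at an adjusted p under 0.05, and the SE was taken as the size of the log2 fold change over the root of F. The code was tested on simulated data. The 9 genes and all gene lists were chosen with earlier results of these data known. Beside the 9 genes, the text names the genes ranked up to 8 in each drug contrast, the 5 genes most correlated with the mean z score of the 8, overlapping or near-identical genes, and called list genes. Of these, 2 genes are not reported here. The ranking used a floor of 1 CPM over 12 libraries. Replicate numbers did not pair the libraries: residuals of same-numbered libraries correlated at -0.135 to 0.061. No 2 replicates were duplicates (chi-square per degree of freedom 1.44 to 4.45). Locations, exon lengths and coding stretches are from GENCODE 29, which is not the annotation of the tables, since some identifier versions differ. Alternatives were 3 other scalings, 2 other filters, DESeq2 1.42.0, a replicate block, only the 2 groups, each library left out, and summed counts of overlapping genes.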

Additional observations from a re-analysis of the deposited data

How the results depend on the processing

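Of 54 values (9 genes in 6 contrasts), 51 kept their call under every alternative, apart from fits that summed CCDC152 with SELENOP. No call reversed or was gained, 7 were lost with a library left out and 2 with DESeq2, all for CREB5, PPP1R1C or CYGB. Other scalings moved these values by at most 0.0185. The sign changed in 1 fit of a drug contrast (CCDC152, combination against ascites) and in 12 fits elsewhere, none of them called. The number of genes called in ascites against control (11) was 59 without a filter, 33 with only the 2 groups, and 3 to 5 with 1 library left out. In the combination against bezafibrate (16) it was 52 without a filter, 7 with only the 2 groups, and 9 (without bezafibrate replicate 2) to 28 (without combination replicate 3), with 10 without bezafibrate replicate 1. For the interaction (0) it was 36 without a filter, 1 with DESeq2, and 0 to 3 with 1 library left out, the 3 without combination replicate 1. Fitted with the replicate block, the interaction had 1 call, the drug contrasts 2145, 2154 and 2213 calls against 2199, 2214 and 2273, and the block changed no call of the 9 genes; 1 of 12 libraries matched its own number best. Depth limits the 8 genes, and CYGB had 2 counts in combination replicate 3. For KLRC3, reads shared with the read-through gene also matter: summed, its value in the combination against ascites was -1.05 in place of -1.70.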
